A study of Homo sapiens with 8 samples.

Results

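Interferon-stimulated genes are genes that cells switch on when interferon reaches them or when they sense foreign nucleic acid. The set described here was the list of 37 such genes by symbol, and all 37 were found among the 57736 gene identifiers of the 8 files. All 37 also passed the filter on low values, which kept 22100 genes for testing. The list spans 4 transcription factors, 2 RNA sensors, 4 genes of the OAS family, 4 of the IFIT family, 3 of the IFITM family, 5 of the ISG15 system, 5 antiviral effectors, 3 genes of the PARP9-DTX3L group and 7 others.

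Type I and type III interferons bind their receptors, the kinases JAK1 and TYK2 act on STAT proteins, and STAT2 then works with IRF9 in a complex called ISGF3. ISGF3 binds a DNA element called the interferon-stimulated response element (ISRE) in the promoters of many such genes, while STAT dimers bind another element, the gamma-activated site (GAS). Epithelial cells of the gut carry out this response to viruses mainly through type III interferon, and cells can hold a tonic level of the same transcripts without infection.

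RNA was sequenced from LS174T, an established human colon adenocarcinoma line, in 8 libraries that form 4 groups of 2. All cells were derivatives that carried the Tet repressor and an inducible short hairpin RNA, aimed either at ASCL2, which codes for a bHLH factor that marks intestinal stem cells, or at the long non-coding RNA WiNTRLINC1. Untreated cells grew for 3 days without doxycycline and treated cells for 3 days with doxycycline at 1 ug/ml. The study compared each knockdown with its untreated control to find genes that respond to the loss of ASCL2 or WiNTRLINC1. The groups follow the sample titles, and "ASCL2 line" and "WiNTRLINC1 line" below stand for the titles, because the genotype entries run the opposite way in all 8 samples. Clones of the WiNTRLINC1 line were picked by RT-PCR, and the number of clones behind a line is not given in the sources used here, so a difference between the lines cannot be told apart from a difference between clones. Treated cells without a hairpin are not among the samples, so an effect of the drug and one of the hairpin cannot be told apart. Whether the 2 libraries of a group came from separate cultures is not in the labels, and p-values therefore measure only the spread between these libraries, which may be technical.

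The interferon elements could be looked up in the promoters, with RefSeq windows that run from 250 bases before to 50 bases after each annotated start on GRCh38.p14. The ISRE core was searched as a pair of GAAA blocks with any 2 bases between them, and the GAS as TTCNNNGAA, on both strands, and matches of the 2 patterns may overlap. Of the 37 members, 31 had a window, and USP18, OAS2, IRF7, IFIT2, OASL and IFITM2 were not analysed here. An ISRE core stood in a window of 22 of these 31 members (71.0%) and of 1195 of all 27305 genes with a window (4.38%). A stricter core, with C as the first of the bases between the blocks, was in 17 members (54.8%) and in 0.941% of all genes, and a GAS was in 10 members (32.3%) and in 9.38% of all genes. Both elements were found for IFITM1, MX1, BST2, DDX60, PARP14 and IFI27, and neither for STAT2, RIGI, UBE2L6, HERC6 and XAF1. A match describes the letters of the window and is not evidence of binding, and a window without one lacks only these letters.

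The windows below are those of the 4 members with a core and the 2 without one whose calls with doxycycline had the smallest adjusted p, and each runs from 200 bases before the start to 30 bases from it, written 5′ to 3′ on the gene's strand. Capitals mark an ISRE core on either strand in the first 4 and a GAS in OAS1, and STAT2 has neither. DTX3L lies at chr3:122564138-122564367 on the plus strand, IFIT3 at chr10:89327797-89328026 on the plus strand, IFI6 at chr1:27672163-27672392 on the minus strand, MX1 at chr21:41420358-41420587 on the plus strand, OAS1 at chr12:112906762-112906991 on the plus strand and STAT2 at chr12:56360078-56360307 on the minus strand (GRCh38.p14).
DTX3L: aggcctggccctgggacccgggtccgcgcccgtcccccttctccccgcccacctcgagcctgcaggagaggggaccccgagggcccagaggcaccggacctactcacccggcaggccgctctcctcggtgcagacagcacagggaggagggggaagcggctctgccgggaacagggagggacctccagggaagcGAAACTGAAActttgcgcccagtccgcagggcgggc
IFIT3: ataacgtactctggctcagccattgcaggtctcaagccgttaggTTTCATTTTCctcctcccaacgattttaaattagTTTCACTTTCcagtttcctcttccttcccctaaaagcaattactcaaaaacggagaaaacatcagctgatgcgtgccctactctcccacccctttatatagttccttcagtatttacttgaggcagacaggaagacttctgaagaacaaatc
IFI6: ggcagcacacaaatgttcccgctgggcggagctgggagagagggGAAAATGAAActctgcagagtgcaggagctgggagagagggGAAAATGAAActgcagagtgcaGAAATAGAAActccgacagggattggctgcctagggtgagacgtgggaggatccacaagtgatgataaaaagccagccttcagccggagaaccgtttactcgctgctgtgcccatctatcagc
MX1: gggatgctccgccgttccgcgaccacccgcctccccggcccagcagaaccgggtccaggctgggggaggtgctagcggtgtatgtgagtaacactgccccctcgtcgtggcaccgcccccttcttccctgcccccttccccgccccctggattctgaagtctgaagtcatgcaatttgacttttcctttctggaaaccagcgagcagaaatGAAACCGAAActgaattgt
OAS1: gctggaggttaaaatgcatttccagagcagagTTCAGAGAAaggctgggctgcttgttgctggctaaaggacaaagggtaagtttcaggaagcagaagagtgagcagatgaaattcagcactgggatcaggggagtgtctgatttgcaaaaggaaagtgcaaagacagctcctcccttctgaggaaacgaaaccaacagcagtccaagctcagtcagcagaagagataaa
STAT2: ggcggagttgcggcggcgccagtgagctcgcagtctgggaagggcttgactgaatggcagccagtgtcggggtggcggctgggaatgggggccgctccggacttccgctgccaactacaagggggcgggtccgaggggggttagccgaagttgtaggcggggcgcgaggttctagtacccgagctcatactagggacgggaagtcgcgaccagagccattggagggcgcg
The window of IFI6 holds 3 cores, that of IFIT3 holds 2, and those of DTX3L and MX1 hold 1 each, the one of MX1 downstream of the start. The core of DTX3L, at chr3:122564332-122564341, is the same stretch of DNA that the search found for PARP9, which is read in the other direction from the same region. In the map of matches, every GAS and every ISRE core except the printed one of MX1 starts within the 200 bases before an annotated start.

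**Figure D1:**
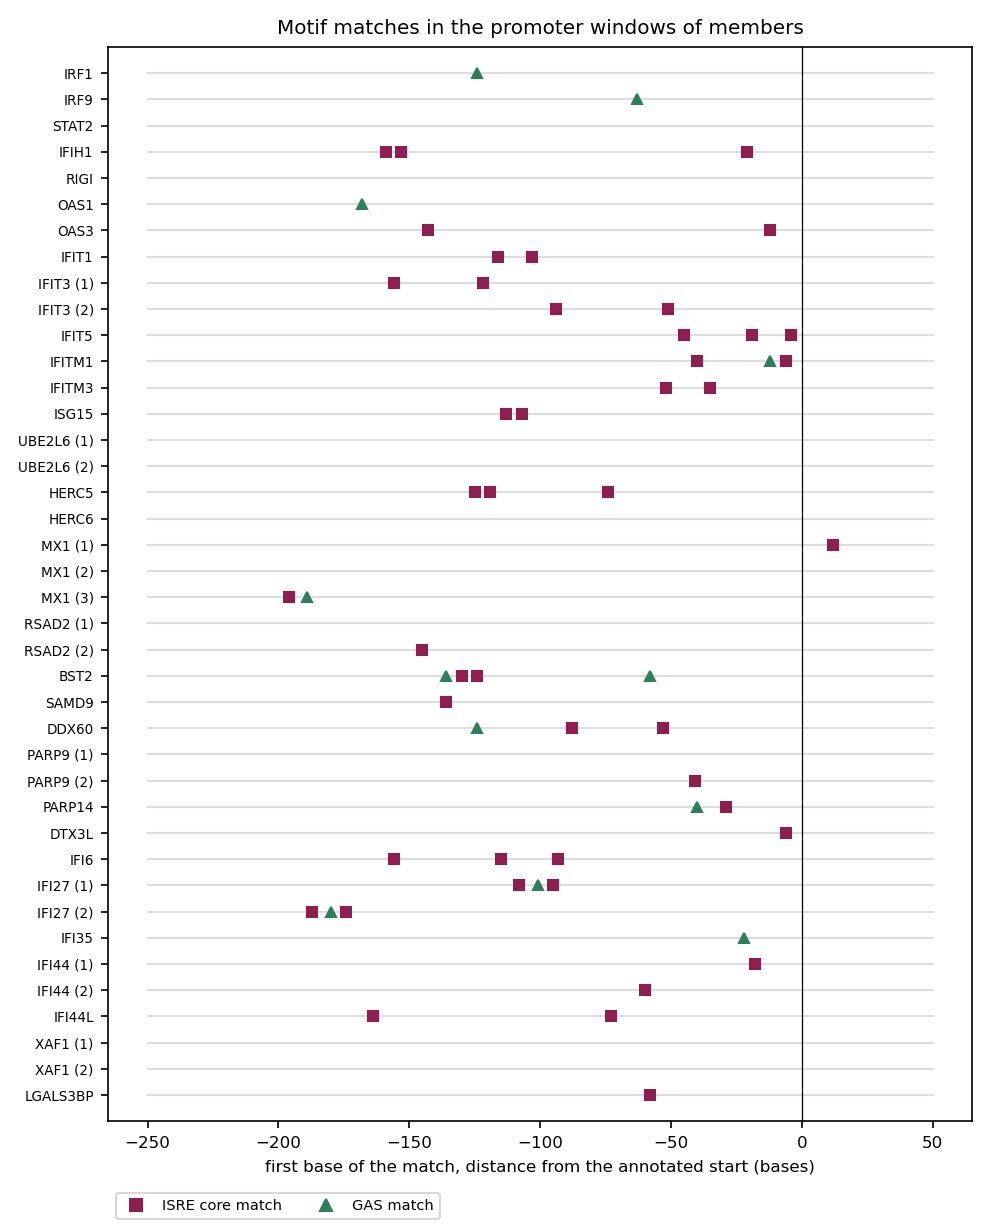
Positions of ISRE core matches (squares) and GAS matches (triangles) in the RefSeq promoter windows of the 31 members that have one, with the distance of the first base of a match from the annotated start in bases on the x axis and 1 row per annotated start. Matches of the ISRE core stand in the windows of 22 members, and STAT2, RIGI, UBE2L6, HERC6 and XAF1 have none of either kind.

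Deposited totals ran from 21524463 to 22941231 per library. ASCL2, the gene that 1 of the hairpins targets, was at 2855 and 3373 in the untreated and 532 and 586 in the treated ASCL2 line, and at 2540 and 2034 in the untreated and 805 and 697 in the treated WiNTRLINC1 line. It was lower with doxycycline in both lines (log2 change -2.47 and -1.60), so it does not settle which label is right, and the directions below belong to the titles. The 14 colon epithelium markers were all measured, with sums of 137310 to 237766 per library, against sums of 46 to 91 for 10 leukocyte markers, 3 to 12 for 4 plasmacytoid dendritic cell markers and 13 to 33 for 3 endothelial markers. No leukocyte marker was above 31 in any library.

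Members were described in 4 comparisons. In each line doxycycline-treated cells were set against untreated ones, the response of the ASCL2 line was subtracted from that of the WiNTRLINC1 line, and the lines were compared without doxycycline (WiNTRLINC1 minus ASCL2). All differences are on the log2(value + 1) scale with their standard error (SE), and a member is said to have passed at a Benjamini-Hochberg adjusted p under 0.05 over the 22100 genes in limma's moderated test. The deposited value is the authors' scaled and rounded read number, so levels are compared between groups and not between genes. In bulk RNA, fewer cells that make a transcript and less of it per cell cannot be told apart.

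The 2 lines differed before any doxycycline was added. Of the 37 members, 28 were lower in the untreated WiNTRLINC1 line (75.68%, against 29.5% of all genes tested), 4 were higher (against 25.7% of all genes) and 5 did not pass. Together 86.49% of the members were called, against 55.2% of all genes. The median difference was -0.96 over the members and -0.044 over all genes. In 29 members both untreated WiNTRLINC1 libraries lay below both untreated ASCL2 libraries (40.0% of all genes did), in 4 above (35.7% of all genes), and in 4 the groups overlapped. Groups were apart for 75.7% of all genes in this comparison. Among the 15912 genes that reached 50 in 2 or more libraries, 66.7% were called in either direction, against 32 of the 36 members in that range (88.9%).

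**Figure D2:**
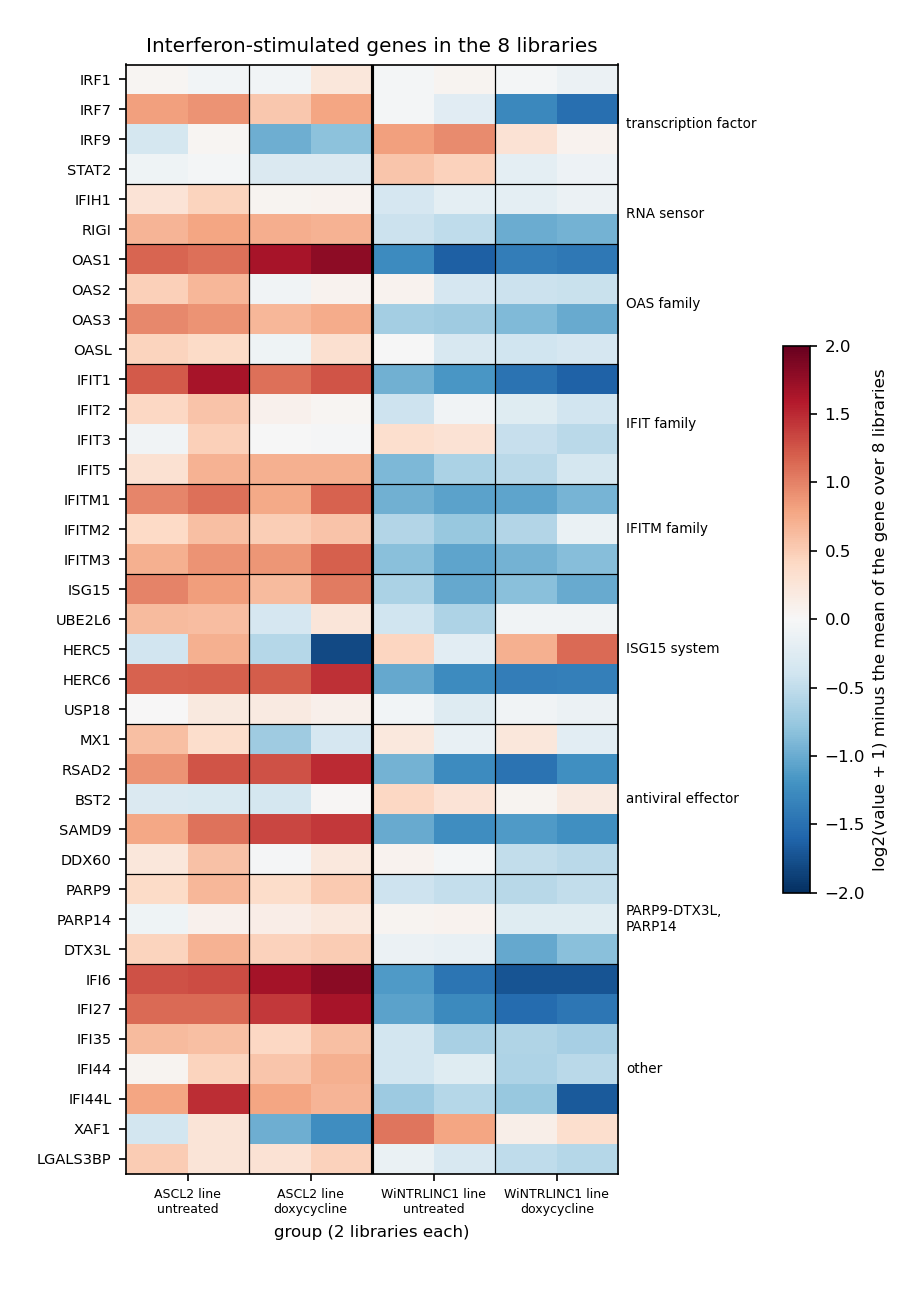
log2(value + 1) of each of the 37 members minus its own mean over the 8 libraries, as colour, with 1 row per member ordered by role and 1 column per library in 4 groups of 2. Most rows are red in the 4 libraries of the ASCL2 line and blue in the 4 of the WiNTRLINC1 line, and STAT2, IRF9, XAF1 and BST2 are higher in the untreated WiNTRLINC1 line.

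The 6 largest differences between the untreated lines were all lower values in the WiNTRLINC1 line. IFI6, a protein of mitochondria and the endoplasmic reticulum that interferon strongly induces, was at 15426 and 15861 in the untreated ASCL2 line and at 2910 and 2321 in the untreated WiNTRLINC1 line. IFI27, a relative of IFI6, was at 11900 and 12004 against 2584 and 2250. OAS1, which makes the oligoadenylates that activate RNase L, was at 15643 and 14954 against 2915 and 2264. The 2 groups of each gene lay far apart.

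IFIT1, which binds viral RNA with an unfamiliar cap, was at 3497 and 4660 in the untreated ASCL2 line and at 764 and 664 in the untreated WiNTRLINC1 line. HERC6, a HECT-domain relative of the ISG15 ligase, was at 1394 and 1418 against 302 and 259. RSAD2 (viperin), which makes a nucleotide that stops viral polymerases, was at 715 and 917 against 197 and 158. None of the 6 members had overlapping groups. The fold differences were 6.02 for IFI6, 5.95 for OAS1, 5.66 for IFIT1, 5.01 for HERC6, 4.96 for IFI27 and 4.57 for RSAD2, and the largest adjusted p among them was 1.8e-08 (limma, RSAD2, log2 difference -2.19, SE 0.153).

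The members that ran the other way were few. STAT2 was at 1027 and 1066 in the untreated ASCL2 line and at 1601 and 1502 in the untreated WiNTRLINC1 line (log2 difference 0.57, SE 0.084, limma adjusted p = 4.3e-05). IRF9, its partner in ISGF3, was at 89 and 117 against 202 and 219 (1.04, SE 0.195, adjusted p = 0.000375). BST2 (tetherin), which holds budding virions at the cell surface, and XAF1, a partner of the apoptosis inhibitor XIAP, were the other 2 higher members, at 0.65 and 0.98. IRF1, IFIT3, HERC5, MX1 and PARP14 did not pass, and of the 32 called members USP18 (-0.26) and DDX60 (-0.39) lost the call without the second untreated ASCL2-line library (adjusted p = 0.248 and 0.185) or the second of the WiNTRLINC1 line (0.273 and 0.082).

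**Figure D3:**
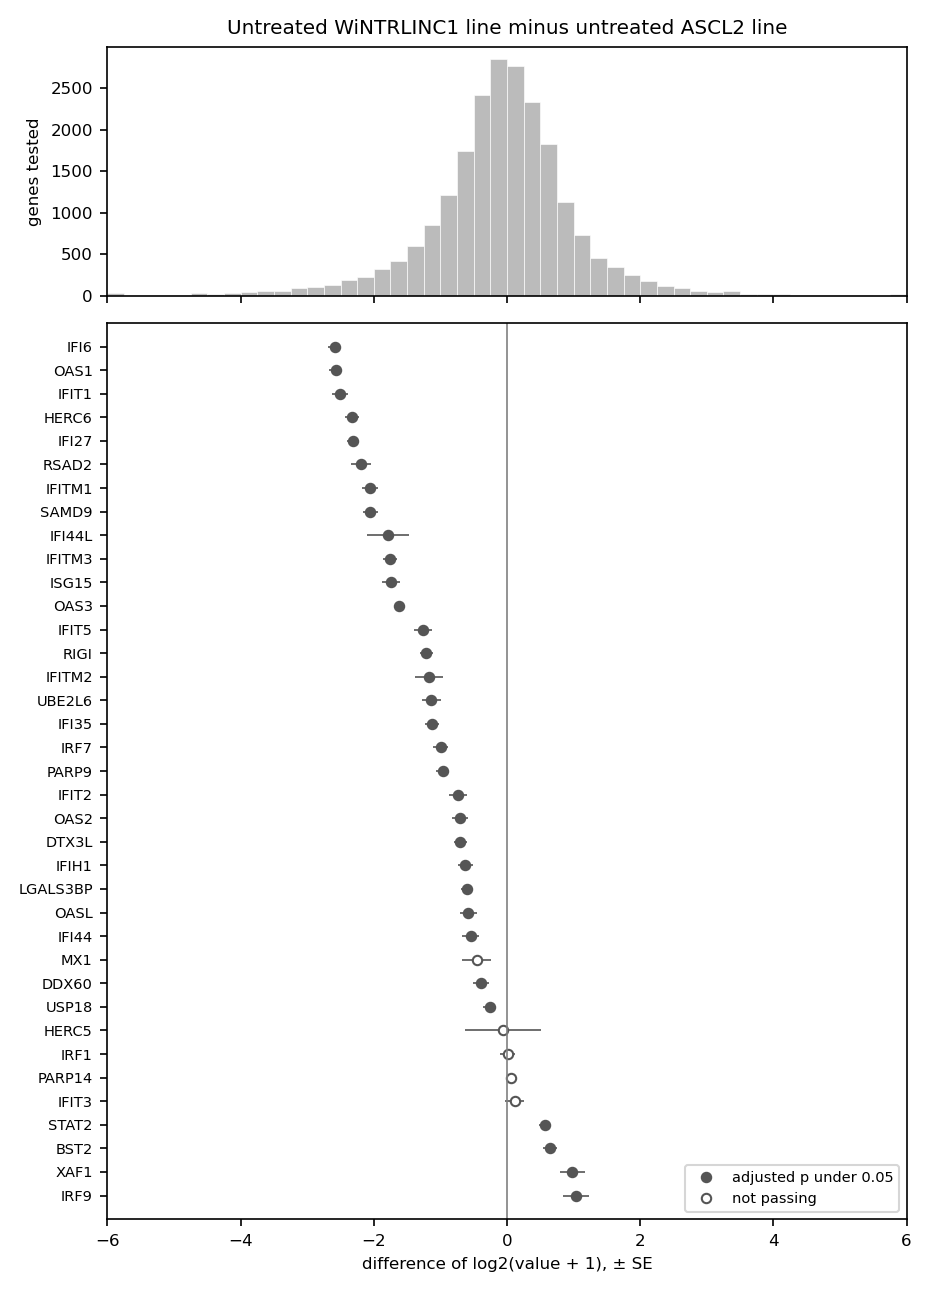
Upper panel, number of the 22100 tested genes by their log2(value + 1) difference, untreated WiNTRLINC1 line minus untreated ASCL2 line; lower panel, the same difference for each of the 37 members with its SE, filled where the adjusted p was under 0.05. The histogram is centred near 0, while 28 members lie on the lower side and 4 on the higher side with filled points.

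Markers of other kinds of cells and of the epithelium also differed between the untreated lines. The 6 fibroblast markers summed to 299 to 304 per library in the untreated ASCL2 line and to 96 to 107 in the untreated WiNTRLINC1 line, mostly through COL1A1 at 200 and 222 against 20 and 19. LUM ran the other way, at 1 and 0 against 10 and 13. Of the 4 fibroblast markers tested, COL1A1 was called lower and LUM higher (29.5% and 25.7% of all genes). The 14 epithelial markers summed to 210965 to 237320 against 155938 to 164608, a sum in which KRT8 was at 114236 and 104293 against 67554 and 64546. They did not move together: 8 of the 14 were called lower and 5 higher (29.5% and 25.7% of all genes). MUC2 was among the higher ones, at 849 and 807 against 14633 and 14085. Plasmacytoid dendritic cell markers, of the cells best known for releasing interferon, summed to 3 to 6 against 4 and 4. IL3RA was at 0 in both untreated ASCL2 libraries, as was the lymphocyte gene NKG7. Their part in the difference was not tested.

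With doxycycline the calls of the members were counted in each line, and the difference between the lines is tested further below. In the ASCL2 line, 5 members were higher (13.9% of all genes were), 8 were lower (12.7% of all genes) and 24 did not pass, with a median of -0.08 against 0.006 for all genes. The members' median was -0.14 without the first untreated library, -0.01 without the second untreated, -0.02 without the first doxycycline and -0.20 without the second doxycycline library. The 13 called members were 35.14% of the list, against 26.6% of all genes. Among genes that reached 50 in 2 or more libraries 37.4% were called, against 38.9% of the members in that range, so at this level the members were called about as often as other genes. In the WiNTRLINC1 line, 1 member was higher (9.54% of all genes), 14 were lower (37.84% of the list, against 9.03% of all genes) and 22 did not pass, with a median of -0.24 against 0.007. Without the first untreated library the median was -0.14. At a value of at least 50 the called share was 41.7% of members against 26.9% of genes.

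Groups did not overlap for 24 members in the ASCL2 line (60.6% of all genes), 9 with doxycycline above (30.8% of all genes) and 15 below (29.8%). They did not overlap for 24 in the WiNTRLINC1 line (54.8% of all genes), 3 above (28.2%) and 21 below (26.5%). With 2 libraries a group, separation is common over all genes, and the total of 24 is read against those shares. The counts of calls rest partly on single libraries. Without the first untreated WiNTRLINC1-line library 5 members were lower there and none higher, 13.5% of the list called against 12.4% of all genes, so the called share was then close to the background. Without its second doxycycline library 7 were lower, 18.9% of the list called against 10.9% of all genes. Without the first untreated ASCL2-line library 3 members were higher there, and 2 without its second doxycycline library, while 4 were lower without the second untreated or the first doxycycline library. Marker sums moved as well: the epithelial sum was 137310 to 141562 in the treated WiNTRLINC1 line against 155938 to 164608 untreated, with KRT18 going from 38977 and 36188 to 8197 and 7734. Of the 14 markers 4 rose there (KRT19, KRT20, CEACAM5, MUC2) and 3 fell (KRT18, CDH1, CDX2), against 9.54% and 9.03% of all genes. The fibroblast sum was 184 to 193 in the treated ASCL2 line against 299 to 304 untreated, mostly through COL1A1 at 60 and 99 against 200 and 222. The other 3 fibroblast markers tested did not pass there. The part of these markers in the responses was not tested. Leukocyte sums overlapped between treated and untreated cells in both lines.

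Called together, the lines sort the members into several patterns. IRF9, OAS3 and XAF1 fell in both lines, and no member rose in both. IFI6 and IFI27 had opposite calls, up in the ASCL2 line and down in the other, and UBE2L6 had the reverse. Calls in the ASCL2 line alone were OAS1, SAMD9 and IFI44, which rose, and IFIH1, OAS2, IFIT2 and MX1, which fell. Calls in the WiNTRLINC1 line alone were 9 members that fell: IRF7, STAT2, RIGI, IFIT1, IFIT3, DDX60, PARP14, DTX3L and LGALS3BP. The remaining 15 members passed in neither. A call in 1 line alone is not a test of a difference between the lines, which the difference of responses below gives. Under at least 1 alternative, STAT2, OASL, IFIT1, IFIT3, IFITM3, BST2, DDX60 and PARP14 also passed in the ASCL2 line. OAS2 did so in the WiNTRLINC1 line. Calls that passed under every alternative processing were those of OAS1, MX1 and XAF1 in the ASCL2 line and of IRF7, STAT2, RIGI and DTX3L in the WiNTRLINC1 line, and each of the others was lost under at least 1.

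The difference of the responses was tested directly. It was lower in the WiNTRLINC1 line for 9 members (7.60% of all genes) and higher for 2 (7.39% of all genes), with 26 not passing. Among members called in 1 line alone, SAMD9, IFIH1, OAS2, IFIT2, IFIT1, IFIT3, DDX60 and LGALS3BP did not pass here. Their limma adjusted p ran from 0.0592 (SAMD9) to 0.452 (DDX60), so for them a difference between the lines was not shown. The called share was 29.73% of members against 15.0% of all genes, and 33.3% of members against 22.1% of genes among those that reached 50 in 2 or more libraries. The median difference was -0.18 for the members and -0.006 for all genes. Of the ASCL2-line libraries, leaving out the second doxycycline library brought the members' median to -0.04, the first untreated to -0.05 and the first doxycycline to -0.31. Without the second doxycycline ASCL2-line library 5 members were lower.

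**Figure D4:**
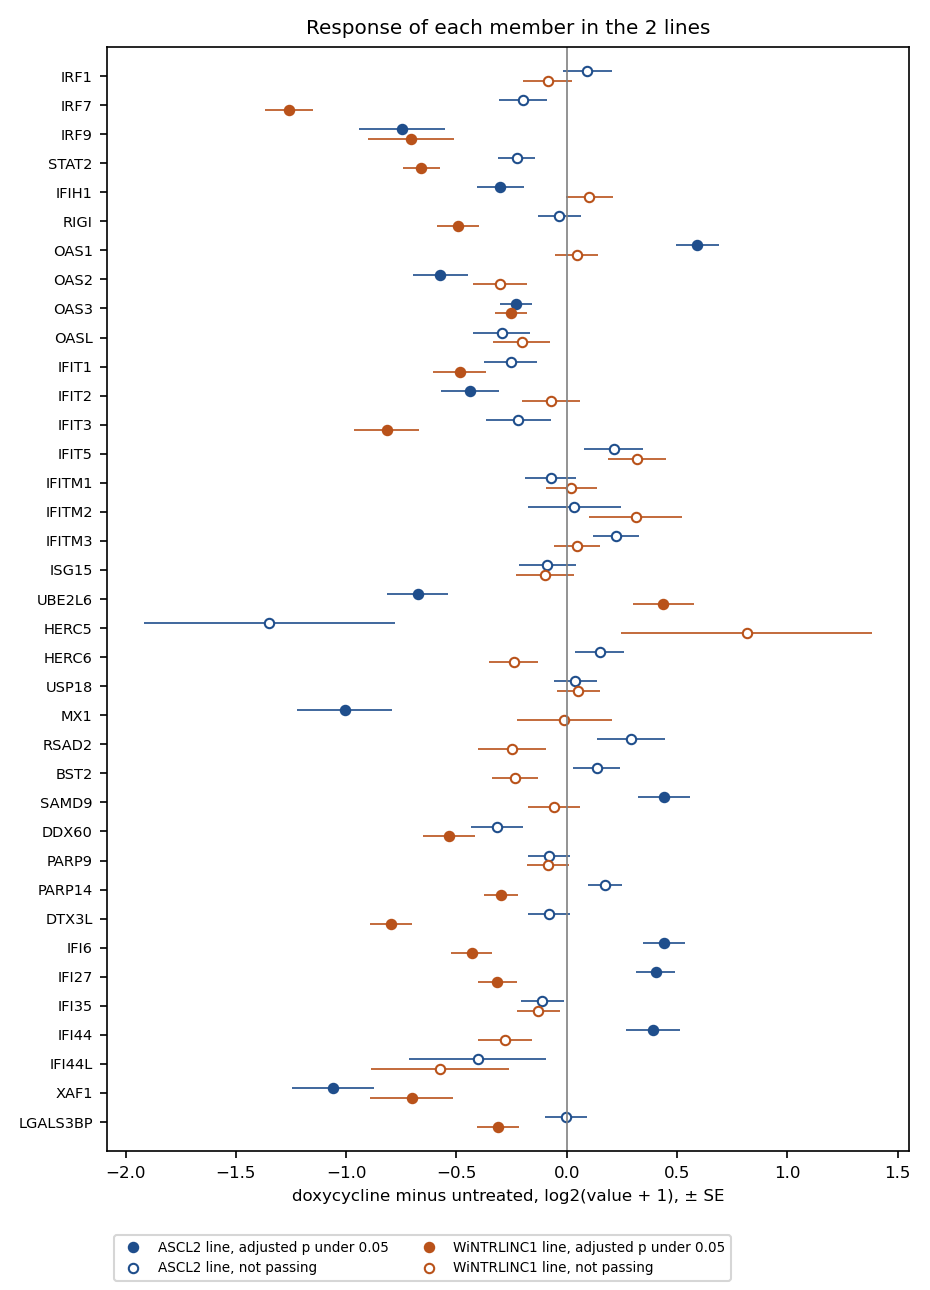
Doxycycline minus untreated on the log2(value + 1) scale with its SE for each of the 37 members, in the ASCL2 line (blue) and the WiNTRLINC1 line (orange), filled where the adjusted p was under 0.05. IRF7 and DTX3L stand far to the left as filled orange points, with open blue points nearer 0, and IFI6 and IFI27 have filled points on opposite sides of 0.

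Among the transcription factors, 3 of 4 fell in the WiNTRLINC1 line (9.03% of all genes) and 1 of 4 in the ASCL2 line (12.7% of all genes). IRF7, which drives the production of interferon and is itself interferon-induced, was at 1702 and 1789 untreated and 1399 and 1651 with doxycycline in the ASCL2 line. In the WiNTRLINC1 line it was at 930 and 822 untreated and 394 and 338 with doxycycline. Treated values were below untreated ones in both lines, by a wider margin in the WiNTRLINC1 line. The fall there was 2.39-fold (log2 change -1.26, SE 0.108, limma adjusted p = 1.46e-06). In the ASCL2 line the change was -0.20 (SE 0.108, adjusted p = 0.202), and the responses differed by -1.06 (SE 0.153, adjusted p = 0.000235). Of the 11 called differences of response, that of IRF7 was the one that passed under all 18 alternatives.

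STAT2 was at 1027 and 1066 untreated and 891 and 898 treated in the ASCL2 line, and at 1601 and 1502 untreated and 952 and 1013 treated in the WiNTRLINC1 line. The 4 groups did not overlap within a line. STAT2 fell 1.58-fold in the WiNTRLINC1 line (log2 change -0.66, SE 0.084, limma adjusted p = 6.03e-05). In the ASCL2 line the change was -0.23 (SE 0.084, adjusted p = 0.0609). The difference of responses was -0.43 (SE 0.119, adjusted p = 0.0224), with an adjusted p of 0.0635 to 0.0899 when the first untreated, the first doxycycline or the second doxycycline ASCL2-line library, or the first untreated or first doxycycline library of the WiNTRLINC1 line, was left out.

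IRF9 was at 89 and 117 untreated and 57 and 64 treated in the ASCL2 line, and at 202 and 219 untreated and 139 and 119 treated in the WiNTRLINC1 line. It was lower with doxycycline in all 4 treated libraries than in the untreated ones of the same line. The changes were -0.75 (SE 0.195, limma adjusted p = 0.0105) and -0.71 (SE 0.195, adjusted p = 0.0199), and their difference was 0.04 (SE 0.276, adjusted p = 0.952). The call in the ASCL2 line was lost without the second untreated (adjusted p = 0.106) or the first doxycycline library (0.0731). The WiNTRLINC1-line call was lost without the first untreated (0.0695), the second untreated (0.119) or the second doxycycline library (0.147). IRF1, a factor that gamma interferon induces, ranged from 521 to 661 over the 8 libraries and passed in none of the 4 comparisons.

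**Figure D5:**
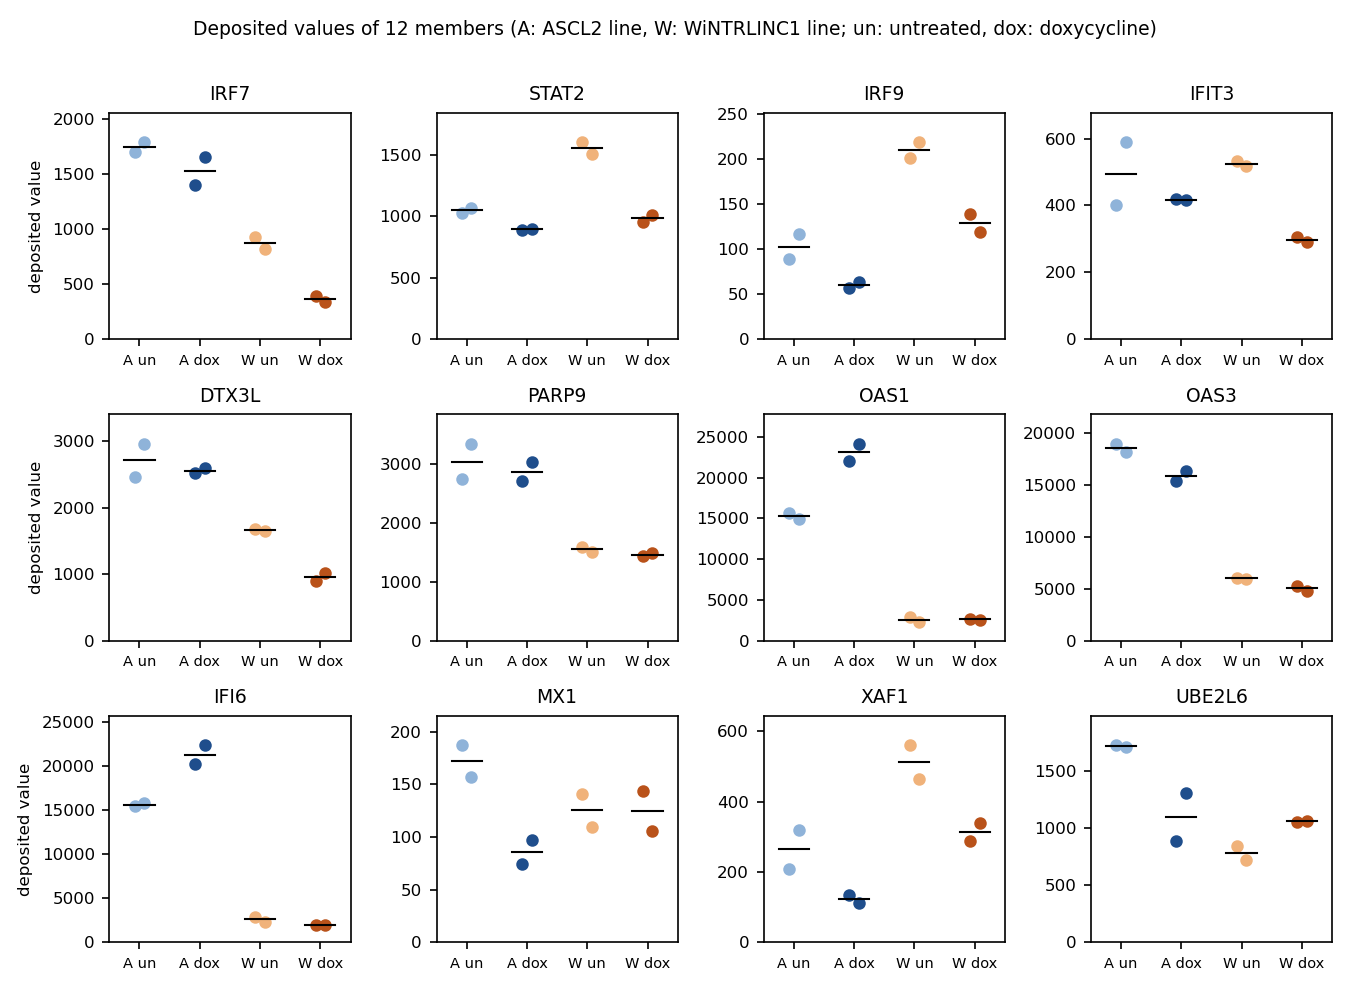
Deposited values of 12 members in every library (points) with the group mean (line), for untreated (un) and doxycycline-treated (dox) cells of the ASCL2 line (A) and the WiNTRLINC1 line (W), each y axis starting at 0. IRF7 and DTX3L drop with doxycycline in the W line, OAS1 and IFI6 rise in the A line, and PARP9 stays apart between lines, at 2714 to 3348 in A and 1436 to 1590 in W.

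The RNA sensors RIGI and IFIH1 (MDA5), which detect viral RNA in the cytosol, were each called in 1 line. RIGI was at 982 and 1062 untreated and 1008 and 988 treated in the ASCL2 line, and at 452 and 428 untreated and 307 and 318 treated in the WiNTRLINC1 line. The groups overlapped in the ASCL2 line and were apart in the other. RIGI fell 1.41-fold in the WiNTRLINC1 line (log2 change -0.49, SE 0.0965, limma adjusted p = 0.00222). The difference from the ASCL2 line was -0.46 (SE 0.136, adjusted p = 0.034), and it no longer passed when any library other than the second untreated ASCL2 or the second untreated WiNTRLINC1 library was left out (adjusted p = 0.0618 to 0.113). IFIH1 was at 650 and 734 untreated and 558 and 563 treated in the ASCL2 line (-0.30, SE 0.106, adjusted p = 0.0478). This call, near the threshold, was lost without any of the second untreated library and both treated libraries of the ASCL2 line, or either treated library of the WiNTRLINC1 line (adjusted p = 0.0589 to 0.266).

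The OAS family, whose members sense double-stranded RNA, did not move as 1 block. OAS1 was at 15643 and 14954 untreated and 22049 and 24149 treated in the ASCL2 line, and at 2915 and 2264 untreated and 2691 and 2611 treated in the WiNTRLINC1 line. Treated values were above untreated ones in the ASCL2 line, and the groups overlapped in the WiNTRLINC1 line. OAS1 rose 1.51-fold in the ASCL2 line (log2 change 0.59, SE 0.098, limma adjusted p = 0.000417), and the responses differed by -0.55 (SE 0.139, adjusted p = 0.014). That difference was lost without the second untreated or second doxycycline library of the ASCL2 line, or the first untreated or second doxycycline library of the WiNTRLINC1 line (adjusted p = 0.0523 to 0.0788).

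The neighbours of OAS1 on chromosome 12 had lower values with doxycycline. OAS2 was at 1052 and 1197 untreated and 716 and 794 treated in the ASCL2 line, where it fell 1.49-fold (log2 change -0.57, SE 0.124, limma adjusted p = 0.00306). In the WiNTRLINC1 line OAS2 was at 791 and 597 untreated and 559 and 555 treated (-0.30, SE 0.124, adjusted p = 0.11). The groups were apart in both lines, and the difference of responses, 0.27, did not pass. OAS3 was at 18932 and 18159 untreated and 15357 and 16280 treated in the ASCL2 line, and at 6082 and 5965 untreated and 5298 and 4835 treated in the WiNTRLINC1 line. OAS3 fell by a like small amount in both, 1.17-fold and 1.19-fold (adjusted p = 0.0281 and 0.024), and leaving out any of the 4 ASCL2 libraries ended the first call (0.0544 to 0.172). The second call ended without the first untreated, second untreated or second doxycycline library of the WiNTRLINC1 line (0.0703 to 0.23). OASL, a relative without the enzyme activity, was lower with treatment in both lines without passing (-0.30 and -0.20).

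Of the IFIT family, IFIT1, IFIT2 and IFIT3 form a complex on foreign RNA. IFIT3 was at 400 and 589 untreated and 418 and 415 treated in the ASCL2 line, where the groups overlapped. In the WiNTRLINC1 line IFIT3 was at 532 and 518 untreated and 306 and 290 treated, with the groups well apart. The fall there was 1.76-fold (log2 change -0.82, SE 0.148, limma adjusted p = 0.0012), and the difference of responses was -0.60 (SE 0.209, adjusted p = 0.0711). IFIT1 was at 3497 and 4660 untreated and 3204 and 3581 treated in the ASCL2 line, and at 764 and 664 untreated and 533 and 486 treated in the WiNTRLINC1 line. IFIT1 fell 1.40-fold in the latter (-0.48, SE 0.12, adjusted p = 0.0109), a call lost without the first untreated (0.117) or the second doxycycline library (0.107).

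IFIT2 gave its call in the other line. Its values were 504 and 563 untreated and 400 and 386 treated in the ASCL2 line, and 283 and 359 untreated and 317 and 290 treated in the WiNTRLINC1 line. IFIT2 fell 1.36-fold in the ASCL2 line (log2 change -0.44, SE 0.131, limma adjusted p = 0.0225) and overlapped between groups in the WiNTRLINC1 line. Leaving out the second untreated, the first doxycycline or the second doxycycline ASCL2-line library ended that call (adjusted p = 0.0793 to 0.146). IFIT5 had treated values above untreated ones in both lines without passing (0.21 and 0.32). The 4 genes share sequence and overlap the annotated span of LIPA, a lysosomal lipase, and the strand setting of the counting is not given, so reads between them may be shared. LIPA itself rose in both lines (0.30 and 0.34, adjusted p = 0.0186 and 0.0118).

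The IFITM proteins, which block the fusion of viruses with cell membranes, stood out for the line difference alone. In the ASCL2 line IFITM3 ran from 10233 to 14223 over the 4 libraries and in the WiNTRLINC1 line from 3003 to 3477. IFITM1, IFITM2 and IFITM3 had untreated line differences of -2.06, -1.17 and -1.76, and none of the 3 passed with doxycycline in either line. In all 3 the untreated and treated groups overlapped within a line. The 3 are near copies of each other on chromosome 11, and how reads were divided between them is not given.

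The ISG15 system attaches the ubiquitin-like protein ISG15 to other proteins. ISG15 itself ranged from 9777 to 12990 in the ASCL2 line and from 3113 to 4104 in the WiNTRLINC1 line, and the changes with doxycycline were -0.09 and -0.10 (limma adjusted p = 0.679 and 0.684). UBE2L6, the conjugating enzyme, was at 1719 and 1707 untreated and 881 and 1306 treated in the ASCL2 line, and at 841 and 721 untreated and 1051 and 1060 treated in the WiNTRLINC1 line. The treated libraries of the 2 lines met in the middle of a wide gap between untreated ones. UBE2L6 fell 1.60-fold in the former (log2 change -0.68, SE 0.139, adjusted p = 0.00216) and rose 1.36-fold in the latter (0.44, SE 0.139, adjusted p = 0.039). The responses differed by 1.11 (SE 0.196, adjusted p = 0.0012), the largest absolute difference among the members called.

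The rise of UBE2L6 in the WiNTRLINC1 line depended on every library of that line and on both untreated ASCL2 libraries, since leaving out any 1 of these 6 ended the call (adjusted p = 0.0556 to 0.256). The ligase HERC5 was the lowest member, at 2 to 22 per library, and its log2 changes of -1.35 and 0.82 had an SE of 0.569. HERC6 was at 1435 and 1696 in the treated ASCL2 line and 235 and 238 in the treated WiNTRLINC1 line, and neither it nor USP18, the protease that removes ISG15, passed with doxycycline in either line. USP18 stayed between 844 and 1153 in all 8 libraries.

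Among the 5 antiviral effectors, the ASCL2 line had 1 rise and 1 fall (13.9% and 12.7% of all genes) and the WiNTRLINC1 line 1 fall (9.03%). MX1, a dynamin-like GTPase that blocks viral nucleocapsids, was at 187 and 157 untreated and 74 and 97 treated in the ASCL2 line, and at 141 and 110 untreated and 144 and 106 treated in the WiNTRLINC1 line. The groups were apart in the ASCL2 line and overlapped in the other. MX1 fell 2.01-fold in the ASCL2 line (log2 change -1.01, SE 0.215, limma adjusted p = 0.00286), and the change in the WiNTRLINC1 line was -0.01 (SE 0.215, adjusted p = 0.982). The responses differed by 1.00 (SE 0.304, adjusted p = 0.0387). That difference was lost without either untreated or the first doxycycline ASCL2-line library, or without the second untreated or first doxycycline library of the WiNTRLINC1 line (adjusted p = 0.0512 to 0.163).

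SAMD9, a restriction factor of poxviruses, was at 1176 and 1472 untreated and 1743 and 1833 treated in the ASCL2 line, and at 343 and 293 untreated and 316 and 294 treated in the WiNTRLINC1 line. SAMD9 rose 1.36-fold in the ASCL2 line (log2 change 0.44, SE 0.118, limma adjusted p = 0.0119), and its groups overlapped in the other. Leaving out the first untreated, first doxycycline or second doxycycline library of the ASCL2 line ended the call (adjusted p = 0.052 to 0.151). DDX60, a helicase linked to RIGI signalling, was at 1036 and 1338 untreated and 873 and 1024 treated in the ASCL2 line, and at 932 and 868 untreated and 632 and 610 treated in the WiNTRLINC1 line. Treated values lay below untreated ones in both lines. DDX60 fell 1.45-fold in the WiNTRLINC1 line (-0.53, SE 0.118, adjusted p = 0.00523), a call lost without the first untreated (0.0549) or second doxycycline library (0.0508), and was at -0.32 in the ASCL2 line (adjusted p = 0.0624). RSAD2, at 918 and 1070 in the treated ASCL2 line and 136 and 162 in the treated WiNTRLINC1 line, passed in neither (0.29 and -0.25), nor did BST2 (0.14 and -0.23).

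PARP9 and DTX3L code for partners of 1 complex that modifies histones and host proteins during antiviral defence, and they lie next to each other on chromosome 3 around the shared ISRE core printed above. DTX3L was at 2466 and 2959 untreated and 2517 and 2589 treated in the ASCL2 line, and at 1675 and 1645 untreated and 894 and 1021 treated in the WiNTRLINC1 line. PARP9 was at 2742 and 3348 untreated and 2714 and 3032 treated, and at 1590 and 1515 untreated and 1436 and 1492 treated. DTX3L had clearly separate groups in the WiNTRLINC1 line, while those of PARP9 were apart by a narrow margin. DTX3L fell 1.74-fold there (log2 change -0.80, SE 0.0951, limma adjusted p = 3.24e-05) and PARP9 was at -0.08 (SE 0.0954, adjusted p = 0.622). DTX3L was at -0.08 in the ASCL2 line, and its responses differed by -0.72 (SE 0.134, adjusted p = 0.00196). The 2 genes overlap in the annotation, so without the strand setting some reads may be shared.

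PARP14, a relative on the same chromosome, was at 3212 and 3642 untreated and 3742 and 3968 treated in the ASCL2 line, and at 3553 and 3569 untreated and 2896 and 2896 treated in the WiNTRLINC1 line. The treated groups were above in the first line and below in the second. PARP14 fell 1.23-fold in the WiNTRLINC1 line (log2 change -0.30, SE 0.0771, limma adjusted p = 0.0137). The change in the ASCL2 line was 0.17 (adjusted p = 0.118), and the responses differed by -0.47 (SE 0.109, adjusted p = 0.00837). Leaving out any library of the WiNTRLINC1 line ended the call in that line (adjusted p = 0.0602 to 0.0793).

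Among the other members, IFI6 and IFI27 widened the gap between the lines. IFI6 was at 15426 and 15861 untreated and 20190 and 22343 treated in the ASCL2 line, and at 2910 and 2321 untreated and 1928 and 1927 treated in the WiNTRLINC1 line. IFI27 was at 11900 and 12004 untreated and 14561 and 17185 treated, and at 2584 and 2250 untreated and 1879 and 2003 treated. No groups overlapped within a line for either gene. IFI6 rose 1.36-fold in the former (log2 change 0.44, SE 0.0933, limma adjusted p = 0.00267) and fell 1.35-fold in the latter (-0.43, SE 0.0933, adjusted p = 0.00452). IFI27 rose 1.32-fold (0.40, SE 0.0891, adjusted p = 0.00357) and fell 1.24-fold (-0.31, SE 0.0891, adjusted p = 0.0229).

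The responses differed by -0.87 for IFI6 (SE 0.132, limma adjusted p = 0.000353) and by -0.72 for IFI27 (SE 0.126, adjusted p = 0.00117). Both differences held when each library was left out in turn. Within the WiNTRLINC1 line, IFI6 lost its call without the first untreated library (adjusted p = 0.0657). IFI27 lost it there without the first untreated, first doxycycline or second doxycycline library (0.0648 to 0.21), and in the ASCL2 line without the second doxycycline library (0.0716).

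IFI44, a protein that assembles into microtubular structures, was at 674 and 882 untreated and 958 and 1070 treated in the ASCL2 line, and at 505 and 550 untreated and 424 and 445 treated in the WiNTRLINC1 line. Treated values were above untreated ones in the first line and below them in the second. IFI44 rose 1.31-fold in the ASCL2 line (log2 change 0.39, SE 0.123, limma adjusted p = 0.0275), a call lost without the first untreated or either doxycycline library (0.0549 to 0.293). The difference of responses was -0.67 (SE 0.173, adjusted p = 0.0157), lost without the first untreated or second doxycycline library of the ASCL2 line, or the second untreated or first doxycycline library of the WiNTRLINC1 line (0.0632 to 0.089).

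XAF1 was at 208 and 321 untreated and 135 and 113 treated in the ASCL2 line, and at 560 and 465 untreated and 289 and 339 treated in the WiNTRLINC1 line. The groups were apart in both lines. XAF1 fell 2.08-fold in the ASCL2 line (log2 change -1.06, SE 0.187, limma adjusted p = 0.000698) and 1.63-fold in the other line (-0.70, SE 0.187, adjusted p = 0.0159). The latter call was lost without the first untreated (0.15) or first doxycycline library (0.131), and the difference of responses, 0.36, did not pass (0.433). LGALS3BP, a secreted glycoprotein that binds galectin-3, was at 18611 and 16363 untreated and 14384 and 13737 treated in the WiNTRLINC1 line, a 1.24-fold fall (-0.31, SE 0.0945, adjusted p = 0.0317) that was lost without the first untreated, first doxycycline or second doxycycline library (0.0955 to 0.248). IFI35 and IFI44L passed in neither line.

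Calls were also counted by promoter content. Of the 22 members with an ISRE core, 4 rose and 3 fell in the ASCL2 line while 9 fell and none rose in the other, with medians of -0.08 and -0.25. Of the 9 without one, the ASCL2 line had 1 rise and 3 falls and the WiNTRLINC1 line 1 rise and 4 falls, with medians of -0.11 and -0.24. Over all genes tested, 13.9% were called higher and 12.7% lower in the ASCL2 line, and 9.54% and 9.03% in the WiNTRLINC1 line. Between the untreated lines the medians were -1.11 with a core and -1.13 without. These counts are a description of small groups and were not tested.

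Members also varied together between replicates of 1 group. In the untreated ASCL2 line 27 of 37 members were higher in the second library than in the first, with a median log2 difference of 0.18 against -0.01 for all genes. The treated ASCL2 libraries gave 30 of 37 and a median of 0.16 against 0.01. In the untreated WiNTRLINC1 line the second library was higher for 8 of 37 members, with a median of -0.18 against 0.00, and in its treated libraries for 18 of 37. The smallest called change with doxycycline, that of OAS3 in the ASCL2 line (-0.23), was little larger than these shifts.

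The genes around the members in the pathway were read from lists by role. Of 21 interferon genes, 1 passed the filter, IFNE, an epithelial interferon, at 2 to 19 per library, and no other interferon gene was above 5 in any library. Their summed values were 14 to 28 and 11 to 27 in the untreated and treated ASCL2 line and 20 to 46 and 25 to 27 in the untreated and treated WiNTRLINC1 line. IFNE passed in none of the comparisons.

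Of 15 receptor and signalling genes 13 were tested. The ASCL2 line had 2 rises and 3 falls (38.46% called, against 26.6% of all genes). The WiNTRLINC1 line had 2 rises and 1 fall (23.08%, against 18.6% of all genes). In the untreated WiNTRLINC1 line 9 were lower and 1 higher (76.92%, against 55.2% of all genes). IFNGR2, a chain of the gamma interferon receptor, rose in the ASCL2 line (log2 change 0.55, limma adjusted p = 0.000183). IL10RB, a chain of the type III interferon receptor, fell there (-0.64, adjusted p = 0.000828), as did the kinase TYK2 (-0.35, adjusted p = 0.0034). IFNGR1, the other gamma receptor chain, rose in both lines (0.38 and 0.46, adjusted p = 0.0112 and 0.00478).

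Of 23 genes of nucleic acid sensing and its adaptors 21 were tested. The ASCL2 line had 4 rises and 5 falls (42.86% called, against 26.6% of all genes). The WiNTRLINC1 line had 5 rises and 3 falls (38.1%, against 18.6% of all genes). Between the untreated lines 10 were lower in the WiNTRLINC1 line and 7 higher (80.95% called, against 55.2% of all genes). The median there was -0.09, against -0.96 for the members and -0.044 for all genes. PRKRA, an activator of the kinase PKR, fell in the ASCL2 line (log2 change -0.81, limma adjusted p = 4.32e-05) and was at 0.18 in the WiNTRLINC1 line. ADAR, an editor of double-stranded RNA, fell in the ASCL2 line (-0.37, adjusted p = 0.00118). DICER1, the nuclease that cuts hairpin RNA, rose in both (0.74 and 0.58, adjusted p = 7.51e-05 and 0.000829), as did the adaptor TRAF3 (0.32 and 0.50, adjusted p = 0.0187 and 0.00148).

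A further 45 interferon-stimulated genes outside the list were all tested. In the WiNTRLINC1 line 5 of them fell (11.11%, against 37.84% of the members and 9.03% of all genes) and 4 rose, with a median of -0.04 against -0.24 for the members, a gap that was not tested. In the ASCL2 line 9 fell and 3 rose (26.67% called, against 26.6% of all genes), with a median of -0.03. In the untreated WiNTRLINC1 line 19 were lower (42.22%, against 75.68% of the members and 29.5% of all genes) and 8 higher. The median there was -0.26, against -0.96 for the members and -0.044 for all genes. TRIM5, a restriction factor of retroviruses, was at 985 and 1094 untreated and 509 and 535 treated in the WiNTRLINC1 line (log2 change -0.99, limma adjusted p = 4.81e-06). ZC3HAV1, which binds viral RNA, fell there by 0.80 on the log2 scale (adjusted p = 7.69e-06). PARP12 fell there (-0.65, adjusted p = 2.03e-05) and rose in the ASCL2 line (0.34, adjusted p = 0.00315), and the guanylate-binding protein gene GBP3 rose in the ASCL2 line (0.73, adjusted p = 8.17e-05).

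Neighbouring genes mostly did not share the calls of members. Around the called members there were 26 comparisons with a nearest tested neighbour in the ASCL2 line, of which 6 had a call in the same direction, 3 in the opposite direction and 17 none. In the WiNTRLINC1 line the counts were 4, 2 and 24 of 30. Called shares over all genes were 26.6% for the former line (13.9% higher and 12.7% lower) and 18.6% for the latter (9.54% higher and 9.03% lower). A call in the same direction is to be read against the share of 1 direction. The neighbour counts were not tested against these shares. Some neighbours were themselves members, such as OAS3 beside OAS1 and OAS2, and in the ASCL2 line the pair of OAS2 and OAS3 was counted from both sides. Among the same-direction calls of the ASCL2 line were TMPRSS2 (-1.02) beside MX1, and TIMM10 (-0.51) and RPS4XP13 (-0.60) beside UBE2L6. Next to IRF7, PHRF1 was at -0.11 in the WiNTRLINC1 line without passing and CDHR5, a brush border protein gene, was lower in both lines (-0.73 and -0.64). CMPK2, which overlaps RSAD2 and is itself interferon-induced, was at 1653 and 1793 in the untreated ASCL2 line and 384 and 337 in the untreated WiNTRLINC1 line (-2.26), beside -2.19 for RSAD2.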

How the data were processed

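RNA from 8 LS174T libraries was sequenced on the Ion Proton after RNase III fragmentation, per the labels' protocols. The submitters' processing notes name cutadapt, TopHat2 2.0.9, Cufflinks and DESeq, and the builds hg19, GRCh37 and mm9 without a role; for the counting program and its strand setting, nothing is stated. Values deposited by the authors are a score, read numbers scaled between libraries and rounded (in 4 of the 8 files 2 to 32 low whole numbers never occur), so no count model was run. Of 57736 identifiers 39501 had a symbol, and the others held 2.34% of the summed values.

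The limma package 3.58.1 (R 4.3.3) was fitted to log2(value + 1) of all 8 libraries in 4 groups, without a block and with the trended prior variance (4 residual and 10.5 prior degrees of freedom). A gene was tested if it reached 10 in 2 or more libraries, 22100 in all, with Benjamini-Hochberg adjustment over them. The log2 offset understates changes of low genes. Precision is limited by 2 libraries per group and by the read depth, which is not given. The totals of 21524463 to 22941231 are sums of scaled values, so unequal depth would not show in them. Nearly all of the unused low whole numbers fell in replicate 1 of both untreated groups and of the treated WiNTRLINC1 group. The fit was tested on simulated data.

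The members and the gene lists were chosen with earlier results of these data known. Values in every library are given for the 20 members with the smallest adjusted p among the 22 called with doxycycline, the 6 called members with the largest line difference, and ASCL2, with up to 4 called genes per pathway list. IFIH1, LGALS3BP, PARP9, LIPA and CMPK2 were added after their values were seen. IKBKE, CCL5 and PECAM1 matched no symbol and were left out. Alternatives changed the offset, the filter, the scaling, the variance model, the samples in the fit and the block.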

Additional observations from a re-analysis of the deposited data

Results flagged for a closer look

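For 11 members the change with doxycycline differed between the lines by the interaction term (limma, Benjamini-Hochberg adjusted p under 0.05 over 22100 genes, of which 15.0% passed). Each value is the log2 change in the WiNTRLINC1 line minus that in the ASCL2 line. It was -1.06 for IRF7, -0.87 for IFI6, -0.72 for IFI27, -0.72 for DTX3L, -0.67 for IFI44, -0.55 for OAS1, -0.47 for PARP14, -0.46 for RIGI and -0.43 for STAT2. It was 1.11 for UBE2L6 and 1.00 for MX1. The signs were reached in different ways. IRF7, DTX3L, RIGI and STAT2 were called lower in the WiNTRLINC1 line alone. OAS1 and IFI44 were called higher, and MX1 lower, in the ASCL2 line alone. IFI6, IFI27 and UBE2L6 were called in opposite directions. PARP14 fell in the WiNTRLINC1 line and did not pass in the other.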

How the results depend on the processing

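No called value of a member changed sign under any of the 19 alternatives (18 for the difference of responses), but many calls near the threshold were lost: over all called members and alternatives 1192 calls held and 146 did not. Calls held under all alternatives for 3 of 13 members in the ASCL2 line (OAS1, MX1, XAF1), 4 of 15 in the WiNTRLINC1 line (IRF7, STAT2, RIGI, DTX3L), 1 of 11 differences of response (IRF7) and 30 of 32 between untreated lines. Some calls were gained under an alternative, by the members named above for each line. IFIT3, BST2 and SAMD9 gained one for the difference of responses, and IFIT3 between untreated lines. The order below is ASCL2 line, WiNTRLINC1 line, difference of responses. Without the filter on low values the higher members numbered 1, 0 and 0 and the lower members 3, 5 and 4, with 3926, 2395 and 1914 genes called. Of the 43363 genes then tested 9.05%, 5.52% and 4.41% were called, against 10.8%, 13.5% and 10.8% of the members. Without the mean-variance trend the members numbered 1, 0 and 0 higher and 3, 4 and 1 lower, with 3410, 1873 and 1313 genes called. These were 10.8%, 10.8% and 2.7% of the members, against 15.4%, 8.48% and 5.94% of all genes. Robust empirical Bayes left 0 higher members in the WiNTRLINC1 line. Leaving out 1 library at a time, where a group of 1 is taken to vary like the others, gave 2 to 6 higher and 4 to 10 lower members and 3665 to 5862 genes, then 0 to 1, 5 to 14 and 2398 to 4131, then 1 to 2, 5 to 10 and 2315 to 2891. Between untreated lines no count moved by over 1.5 times. The cause of these shifts was not tested. Quantile normalization gave 5 higher and 10 lower members in the ASCL2 line and equal totals 5 and 11.

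Replicate numbers are shared between groups, but the labels give no common origin, and the replicate differences correlated at -0.0521 in the ASCL2 line, 0.105 in the WiNTRLINC1 line and 0.000374 between untreated lines over 22100 genes. With the replicate block 5 members were higher and 10 lower in the ASCL2 line (6148 genes called), 1 and 14 in the WiNTRLINC1 line (4298), 2 and 10 for the difference (3511) and 4 and 28 between untreated lines (12261). Precision depended on the level: the lowest member, HERC5, had an SE of 0.569, against 0.0719 for OAS3.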
